A study of Mus musculus with 9 samples.

Results

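The values below describe 10 genes of the hepatic lipid droplet in the liver of rats: the patatin lipases Pnpla2, Pnpla3 and Pnpla5, the lipase inhibitor G0s2, the perilipins Plin2, Plin4 and Plin5, the CIDE genes Cideb and Cidec, and Hsd17b13. They were selected by symbol from the 19686 genes of the count table, because their proteins sit on or act at the droplet surface. Measured values also entered the choice, since the members and the gene lists used below were chosen with earlier results of these data known. Hsd17b13 was taken because the study names it for the model and HME groups, and Pnpla5 because its counts were close to 0 with the extract. For Hsd17b13 in the model group against the control group and the HME group against the model group, and for Pnpla5 in the HME group against either other group, the values are therefore given as a description without a test.

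Liver RNA came from 9 male Wistar rats, 3 in each of the control, model and HME groups, taken from groups of 10 rats in the whole study after 12 h of fasting. The control group drank purified water and received saline by gavage. The model group drank 15% fructose in place of water and received the same saline. The HME group drank 15% fructose and received by gavage the 50% methanol extract of Danggui-Shaoyao-San (DSS), a formula of 6 herbs, at 1.8 g/kg, and treatment lasted 8 weeks. The labels call the treated group DSS, and it is named HME here because, of the 3 extracts of the study, this is the one whose livers were sequenced. No group received the extract without fructose, so the extract and fructose together were compared with water in the HME and control groups.

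Lipid droplets store triglyceride and cholesteryl ester in a core that is covered by a single layer of phospholipid and by proteins. In hepatocytes Plin2 is the main perilipin of this coat, Pnpla2 (adipose triglyceride lipase) starts the breakdown of stored triglyceride with the cofactor Abhd5, and G0s2 binds and inhibits Pnpla2. Pnpla3 and Pnpla5 belong to the same patatin family, Cidec helps droplets to fuse and grow, Cideb serves the lipidation of very low density lipoprotein, and Hsd17b13 is a liver enzyme bound to the droplet surface.

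Levels are given as CPM, the gene's share of a library's counts after TMM, edgeR's scaling between libraries, and group means as mean ± SD of 3 rats. CPM are not corrected for transcript length, so levels were compared between rats and not between genes. Total counts per library ranged from 14345819 to 26837227, and 3 counts, set here as the floor, were worth 0.120 to 0.199 CPM. Model replicate 1 stood apart on the second principal component of all genes, which held 23.0% of the variance. Fewer cells of a type and less RNA per cell cannot be told apart in such bulk samples. The 8 hepatocyte markers summed to 139957 to 176664 CPM in the control group, 176099 to 226210 in the model group and 173448 to 218918 in the HME group. Alb made up most of this, with means of 101232, 128009 and 120621 CPM. In the model against the control group 6 of the 8 were higher and 2 lower. The lower ones were Cps1, with means of 2419 against 4075 CPM, and Tat, with 460 against 795 CPM. Among the adipocyte markers, Adipoq, Retn and Adig had 0 to 2 counts in any rat, Fabp4 stood at 0.178 to 1.41 CPM in the control, 1.05 to 2.503 in the model and 0.866 to 1.67 in the HME group, and Cfd at 8.27 to 18.2, 12.9 to 17.7 and 13.1 to 22.1 CPM. The whole adipocyte list, of which 7 of 9 genes were in the table, summed to 2339 to 3074 CPM in the control, 1776 to 4001 in the model and 3587 to 6239 in the HME group, nearly all of it from Car3, which hepatocytes also express.

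Pnpla3, a patatin lipase that remodels the lipids of hepatocyte droplets and is known as a lipogenic gene, differed widely between rats. It stood at 444, 441 and 33.9 CPM in the control rats. In the model rats it stood at 67.7, 14.4 and 41.4 CPM. In the HME rats it stood at 1.19, 0.378 and 3.02 CPM, which are 22, 7 and 58 counts. The HME rats lay below every rat of both other groups, while control replicate 3 fell inside the range of the model group.

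The group means of Pnpla3 were 306 ± 236, 41.2 ± 26.6 and 1.53 ± 1.35 CPM (SD, n = 3 each). Between the HME and model groups the fitted log2 fold change was −4.74 (SE 0.755, 95% interval −6.48 to −2.998), a level 26.7-fold lower with the extract. This difference did not pass the threshold of edgeR's quasi-likelihood test across all genes (FDR 0.0509), whereas DESeq2 gave an FDR of 8.34e-05. The threshold throughout was an FDR of 0.01 together with a log2 fold change of 0.5 or more in either direction. Leaving out 1 rat at a time moved the log2 fold change from −5.69 to −4.18 and the edgeR FDR from 0.0356 without model replicate 2 to 0.231 without HME replicate 1. No filter on low counts gave an edgeR FDR of 0.377.

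Compared with the control group, Pnpla3 in the HME group was at −7.63 on the log2 scale (SE 1.46, 95% interval −11.4 to −3.82), with an FDR of 0.0525 by edgeR and 9.62e-09 by DESeq2. Without control replicate 3, whose level lay far below those of the other control rats, the log2 fold change was −8.16 and the edgeR FDR 0.0107. The edgeR FDR was 0.0916 to 0.189 when any other rat was left out, the highest without HME replicate 1, and 0.207 with the replicate number as a block. In the model group against the control group Pnpla3 was at −2.89 on the log2 scale (SE 0.907, 95% interval −4.98 to −0.79, edgeR FDR 0.234, DESeq2 FDR 0.130). The 3 rats of the groups overlapped there, and the edgeR FDR was 0.0954 without control replicate 3 and 0.326 to 0.504 without any other rat. The comparisons share groups, so the 3 differences are not independent of one another.

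Pnpla5, a patatin lipase that lies beside Pnpla3 in the mouse genome, stood at 46.8, 64.4 and 14.2 CPM in the control rats and at 29.4, 17.8 and 8.74 CPM in the model rats. In the HME rats it had 0, 1 and 1 counts, against 1165, 1083 and 213 counts in the control rats and 683, 278 and 142 counts in the model rats. Every HME rat was thus under the floor of 3 counts, and control replicate 3 was again the lowest of its group. Over the summed counts of a group, scaled to library size after TMM, the model group held 563 times as much as the HME group (counting interval 156 to 4656, from 1103 against 2 counts). For the control group the ratio was 1219 (counting interval 337 to 10071, from 2461 against 2 counts). These intervals cover counting error alone and not the spread between rats. Pnpla5 was chosen for its low HME counts, so they describe the counts and are not a test. The only comparison of Pnpla5 that did not enter its choice, the model group against the control group, gave a log2 fold change of −1.16 (SE 0.572, 95% interval −2.48 to 0.16, edgeR FDR 0.447), and the rats overlapped.

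**Figure D1:**
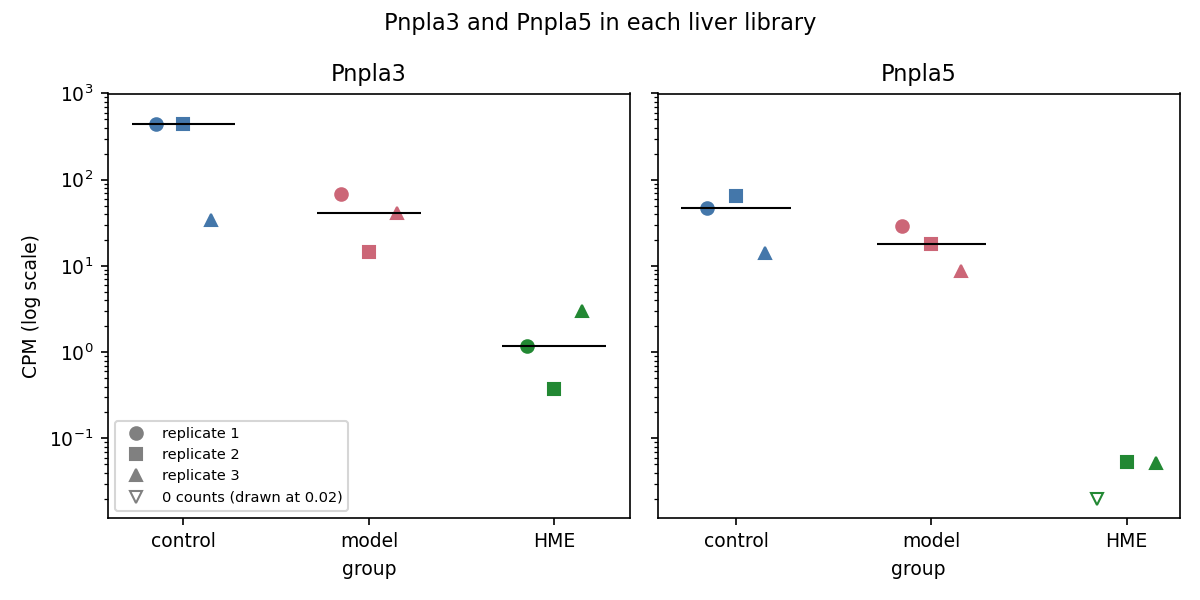
Level of Pnpla3 (left) and Pnpla5 (right) in each rat liver as CPM on a log axis, by group, with the symbol giving the replicate and the black line the group median (drawn where every rat had at least 1 count). The HME rats sit between 0.378 and 3.02 CPM for Pnpla3 and have 0 to 1 counts for Pnpla5, below every control and model rat.

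The ratio of Pnpla3 to Pnpla5 counts, which does not depend on the scaling of a library, was 9.50, 6.84 and 2.39 in the control rats and 2.30, 0.809 and 4.73 in the model rats. Both genes were high in control replicates 1 and 2 and low in control replicate 3, with Pnpla3 the further apart of the pair. In the HME group the ratio was not formed, since Pnpla5 had at most 1 count.

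Pnpla2, the adipose triglyceride lipase, had 5 to 9 counts in every library, or 0.260 to 0.513 CPM. Its means were 0.330 in the control, 0.403 in the model and 0.285 CPM in the HME group, and the groups overlapped. It did not pass the filter on low counts in any comparison. Whether reads of Pnpla2 were lost in counting, for example where genes overlap in the rat annotation, was not tested, so these counts do not set its level in the liver. Abhd5, the cofactor of Pnpla2, was chosen after its values were seen and stood at 71.0 ± 13.6 CPM in the control, 56.6 ± 10.5 in the model and 92.2 ± 17.3 in the HME group (SD, n = 3 each). The HME rats lay above all model rats for Abhd5, but the difference did not pass the test (log2 fold change 0.71, SE 0.195, edgeR FDR 0.326).

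G0s2, the inhibitor of Pnpla2, stood at 179, 206 and 151 CPM in the control, 469, 141 and 224 in the model and 80.2, 161 and 145 in the HME rats. Model replicate 1 was the highest of all 9 rats and HME replicate 1 the lowest, and all pairs of groups overlapped. In log2 terms the model group was at 0.64 against the control group (SE 0.396, edgeR FDR 0.532), and it was 0.02 without model replicate 1 and 0.95 without model replicate 2. In the HME group against the model group it was −1.11 (SE 0.437, edgeR FDR 0.575). Over the rats left out in turn that value ran from −1.43 to −0.50, the latter without model replicate 1. Against the control group it was −0.48 (SE 0.254, edgeR FDR 0.294), and it ran from −0.67 to −0.23 over the rats left out.

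Among the perilipins, Plin2, whose protein is stabilised by the lipid it coats, stood at 185, 248 and 183 CPM in the control rats. In the model rats it stood at 414, 125 and 337 CPM, and in the HME rats at 65.5, 91.1 and 156 CPM. All HME rats were below all control rats, and model replicate 2 lay within the HME range while the other model rats lay above every control rat. The means were 205 ± 37.1, 292 ± 150 and 104 ± 46.7 CPM (SD, n = 3 each).

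The log2 fold change of Plin2 between the HME and control groups was −0.98 (SE 0.322, 95% interval −1.76 to −0.21), with an FDR of 0.124 by edgeR and 0.00590 by DESeq2. The edgeR FDR lay between 0.0140 without HME replicate 3 and 0.281 without HME replicate 2, and the log2 fold change between −1.38 and −0.74. Against the model group it was −1.49 (SE 0.461, 95% interval −2.55 to −0.42), which neither tool called (edgeR FDR 0.416, DESeq2 FDR 0.0221). The difference of the model from the control group was 0.51 (SE 0.392, edgeR FDR 0.619), and it was 0.16 without model replicate 1 and 0.87 without model replicate 2.

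Plin5, a perilipin that brings droplets and mitochondria together, had 2.05, 3.21 and 3.39 CPM in the control, 4.82, 3.08 and 4.43 in the model and 5.47, 4.31 and 3.64 in the HME rats. The HME rats were above every control rat but overlapped with the model rats. The log2 fold change was 0.64 in the HME group against the control group (SE 0.267, 95% interval 0.04 to 1.24, edgeR FDR 0.179, DESeq2 FDR 0.195). It was 0.52 in the model group against the control group (SE 0.303, edgeR FDR 0.511) and 0.12 in the HME group against the model group (SE 0.268, edgeR FDR 0.942). Plin4, another perilipin, had 6, 4 and 0 counts in the control, 0, 0 and 1 in the model and 0 in each HME rat. It did not pass the filter, and a loss of its reads in counting was not tested either.

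Of the CIDE genes, Cidec stood at 52.8, 65.1 and 67.9 CPM in the control, 82.9, 65.1 and 72.6 in the model and 54.0, 50.9 and 67.2 in the HME rats. The groups overlapped in every comparison. The model group was at 0.25 against the control group on the log2 scale (SE 0.157, edgeR FDR 0.542), the HME group at −0.35 against the model group (SE 0.156, edgeR FDR 0.627) and at −0.12 against the control group (SE 0.142, edgeR FDR 0.667). Cideb spanned the narrowest range for its level among the 8 droplet genes that passed the filter, at 140, 167 and 139 CPM in the control, 167, 117 and 134 in the model and 133, 123 and 142 in the HME rats. Its log2 fold changes were −0.10 (95% interval −0.49 to 0.30), −0.07 (−0.44 to 0.31) and −0.17 (−0.44 to 0.09) in the same order of comparisons, with edgeR FDR of 0.849, 0.948 and 0.410.

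Hsd17b13 stood at 213, 248 and 186 CPM in the control rats, 400, 316 and 284 in the model rats and 229, 185 and 239 in the HME rats. Every model rat was above every control and HME rat, a separation that belongs to the comparisons for which the gene was chosen. As a description, the model group was at 0.62 against the control group and the HME group at −0.61 against the model group on the log2 scale. The HME group against the control group gave 0.01 (SE 0.148, 95% interval −0.33 to 0.34, edgeR FDR 0.987), with means of 218 ± 28.8 and 216 ± 31.1 CPM (SD, n = 3 each). The sign of that value was negative under scaling to library size alone, at −0.13. This comparison combines the 2 for which the gene was chosen. A value near 0 thus follows in part from the choice, and its FDR is not an independent test.

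**Figure D2:**
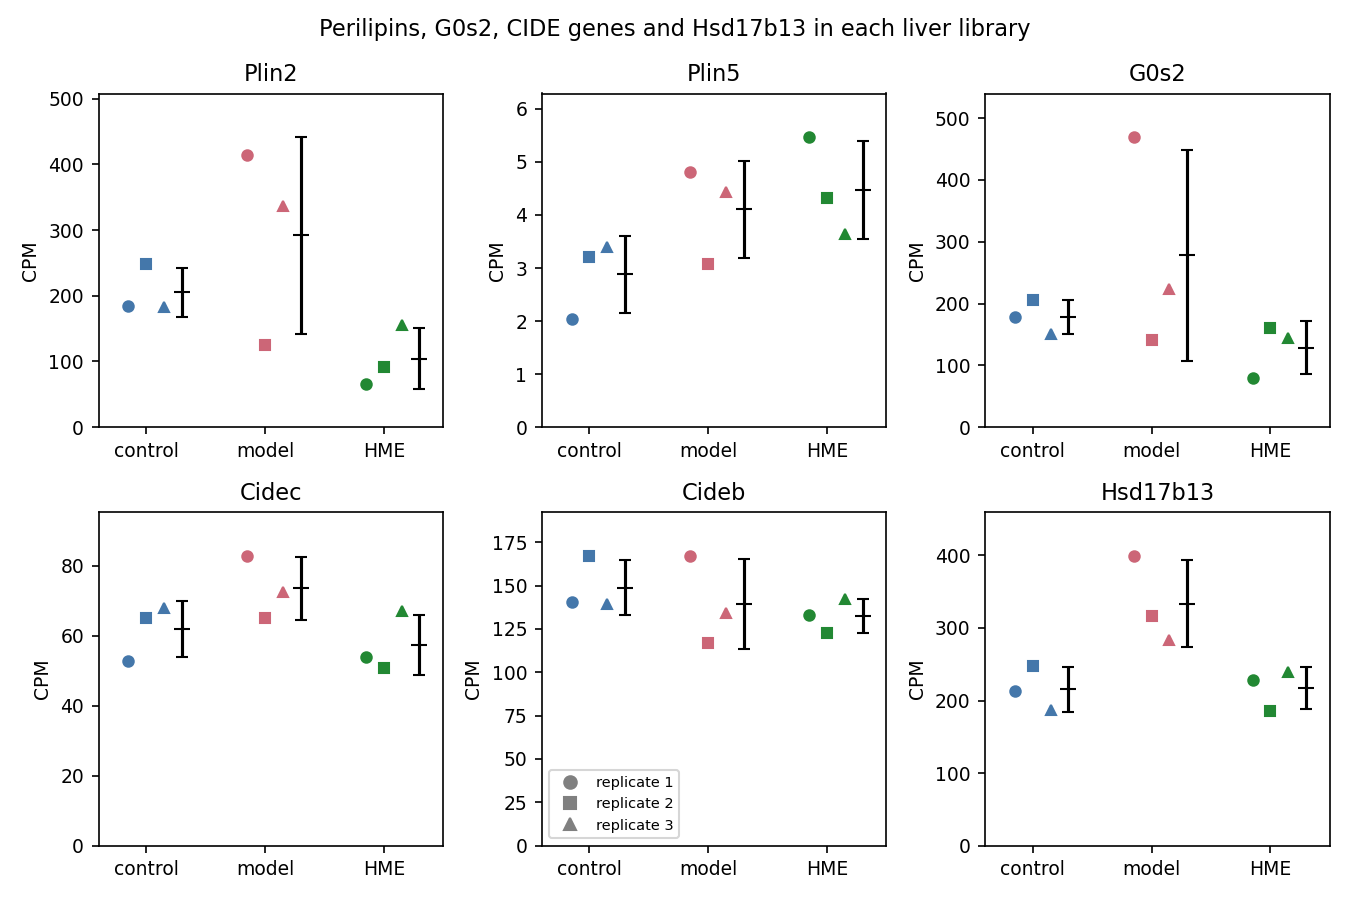
Level of Plin2, Plin5, G0s2, Cidec, Cideb and Hsd17b13 in each rat liver as CPM by group. Symbols give the replicate, and the black bar beside each group gives the mean with ± SD of 3 rats. Plin2 and G0s2 spread most within the model group, from 125 to 414 and from 141 to 469 CPM, while Cideb stays between 117 and 167 CPM over all rats.

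Over the whole group of droplet genes, 8 of 10 passed the filter on low counts in each comparison, and Pnpla2 and Plin4 did not. Because the members were chosen with earlier results known, the counts beside all genes are a description and no test of the group. In the model group against the control group, edgeR called 0 of the 7 members tested, where it called 0.0801% of all genes at an FDR of 0.01 and 0.601% at 0.05. DESeq2 called 0 of 7, against 2.05% of all genes, and 1 member, Pnpla3, had an unadjusted edgeR p under 0.05, against 13.2% of all genes. The rats of the groups were apart for 0 of the 7, against 21.1% of all genes. The median log2 fold change of the 7 was 0.25, beside −0.00 over all genes tested.

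Between the HME and model groups, edgeR called 0 of the 6 members tested at an FDR of 0.01 or 0.05, where it called 0.136% and 0.456% of all genes. DESeq2 called 1 of 6, Pnpla3, against 1.18% of all genes, and 3 members, Pnpla3, Plin2 and G0s2, had an unadjusted edgeR p under 0.05, against 8.02% of all genes. The rats were apart for 1 of the 6, Pnpla3, against 13.9% of all genes, and the median log2 fold change was −0.73 beside 0.00 over all genes.

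Between the HME and control groups, edgeR called 0 of the 7 members tested, where it called 1.48% of all genes at an FDR of 0.01 and 6.36% at 0.05. DESeq2 called 2 of 7, Pnpla3 and Plin2, against 6.09% of all genes. An unadjusted edgeR p under 0.05 was found for 3 members, Pnpla3, Plin2 and Plin5, against 24.3% of all genes. The same 3 had rats that did not overlap, Plin5 higher and Pnpla3 and Plin2 lower in the HME group, against 30.0% of all genes, and the median log2 fold change was −0.17 beside −0.01 over all genes.

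**Figure D3:**
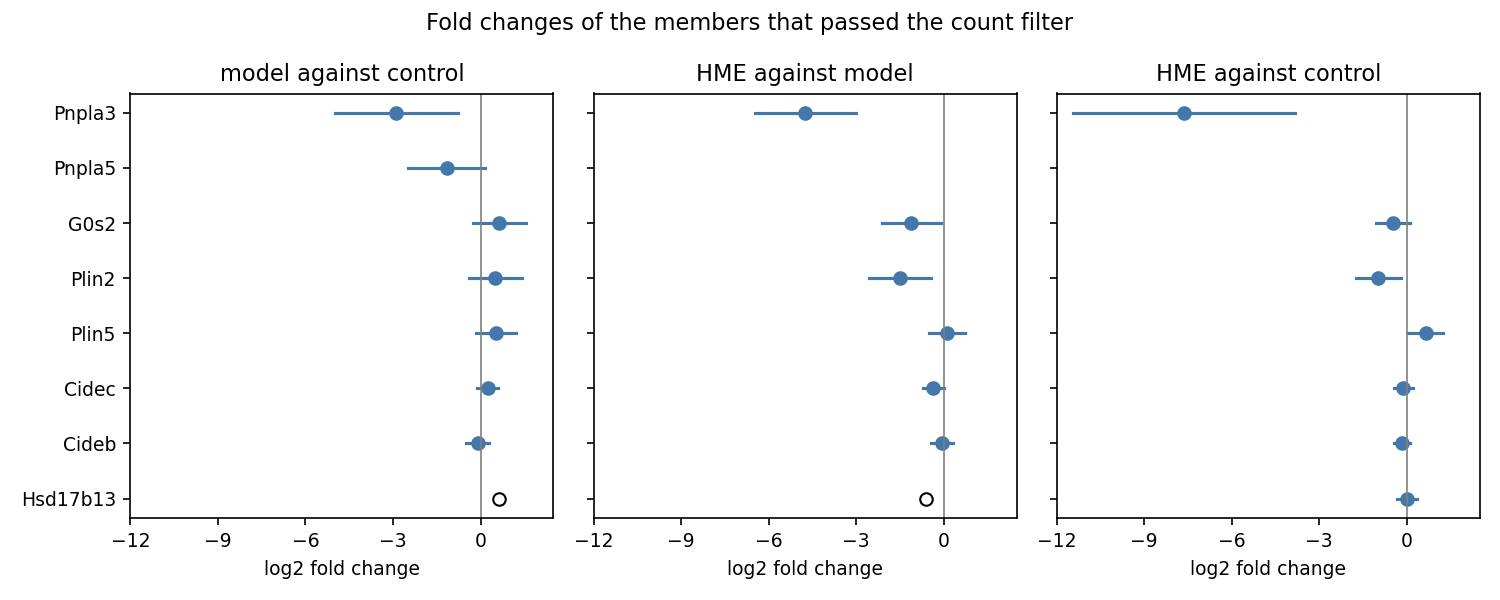
Fitted log2 fold change (x axis) of the 8 droplet genes that passed the count filter, in 3 panels, 1 for each comparison. Filled points carry a 95% interval formed from the F statistic of edgeR's test and not adjusted for the number of genes. Open points mark Hsd17b13 in the comparisons that chose it, without an interval. Pnpla5 is left out of both HME panels because its HME counts were 0 to 1. The interval of Pnpla3 lies to the left of 0 in all 3 panels, from −6.48 to −2.998 in the HME group against the model group, while that of Cideb spans 0 in each.

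The other genes of droplet and triglyceride turnover were taken from 6 lists, of which 51 of 55 genes were in the table and 48 were tested in each comparison. These lists too were chosen with earlier results known, so their counts beside all genes are a description. Between the HME and model groups, edgeR called 0 of the 48 at an FDR of 0.01 and 0 at 0.05, while 8 had an unadjusted edgeR p under 0.05 (8.02% of all genes did) and DESeq2 called 2, Lpl and Pparg (1.18% of all genes). In the model group against the control group edgeR called 0 at 0.01 and 1, Agpat3, at 0.05, while 11 had an unadjusted edgeR p under 0.05 (13.2% of all genes did) and DESeq2 called 2, Agpat3 and Lpl (2.05% of all genes). In the HME group against the control group edgeR called 4 at 0.01, Agpat3 and Pparg higher and Srebf1 and Mgll lower (1.48% of all genes), and Pcyt1a joined them at 0.05 as lower (6.36% of all genes). There 17 of the 48 had an unadjusted edgeR p under 0.05 (24.3% of all genes did), and DESeq2 called 7, adding Gpam, Pcyt1a and Tmem159 (6.09% of all genes).

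Agpat3, an acyltransferase of glycerolipid synthesis, stood at 25.5, 29.7 and 24.3 CPM in the control, 60.3, 52.4 and 71.8 in the model and 59.0, 72.6 and 64.7 in the HME rats. All rats given fructose, with or without the extract, were above all control rats. The log2 fold change against the control group was 1.30 in the HME group (SE 0.121, edgeR FDR 0.000736), with an edgeR FDR of at most 0.00572 when any 1 rat was left out. In the model group it was 1.21 (SE 0.161, edgeR FDR 0.0244), and the edgeR FDR was above 0.05 without any 1 of the 3 control rats or model replicate 3, at up to 0.106. Between the HME and model groups the log2 fold change was 0.09 (SE 0.158, edgeR FDR 0.921). The other genes of triglyceride synthesis that the naming rule takes were Gpam, at −1.58 in the HME group against the control group (edgeR FDR 0.0702, DESeq2 FDR 9.90e-06), and Gpat3, at −1.13 against the model group (edgeR FDR 0.489). Of the 13 tested genes of this list, 4 were higher and 9 lower in the HME group than in the control group. Their median log2 fold change was −0.24, beside −0.01 over all genes. In the model against the control group 6 were higher and 7 lower, and in the HME against the model group 5 and 8. The list of transcription factors leaned the other way in the HME against the control group, with 5 higher, 3 lower and a median of 0.32.

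Among transcription factors that act on droplet genes, Srebf1, which encodes the SREBP-1 factors of lipogenesis, stood at 569, 857 and 602 CPM in the control, 456, 214 and 606 in the model and 169, 219 and 243 in the HME rats. The HME rats were below every control rat. The log2 fold change was −1.69 (SE 0.198, edgeR FDR 0.00244), and the edgeR FDR was 0.0106 without HME replicate 2 and 0.0267 with all 9 libraries in one fit. Against the model group it was −1.01 (SE 0.348, edgeR FDR 0.489), and in the model against the control group −0.67 (SE 0.358, edgeR FDR 0.484). Pparg, the nuclear receptor of fat storage, stood at 2.17, 2.85 and 3.12 CPM in the control, 3.70, 3.21 and 4.80 in the model and 8.45, 7.98 and 7.75 in the HME rats. All HME rats were above all others for Pparg. Its log2 fold change was 1.57 against the control group (SE 0.197, edgeR FDR 0.00295) and 1.05 against the model group (SE 0.218, edgeR FDR 0.129, DESeq2 FDR 0.00636). The call against the control group was lost by a small margin without control replicate 1 or 2 or HME replicate 1 or 3, at an edgeR FDR of up to 0.0155, and with the replicate number as a block, at 0.0117.

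Among other lipases, Mgll, which splits monoglyceride, stood at 52.7, 69.5 and 64.8 CPM in the control, 31.5, 48.8 and 42.0 in the model and 36.8, 35.7 and 32.4 in the HME rats. The control rats were above all others. The log2 fold change in the HME group was −0.84 against the control group (SE 0.126, edgeR FDR 0.00679). The call was lost when any rat other than control replicate 1 was left out, at an edgeR FDR of 0.0184 to 0.0284, and also with the replicate number as a block (0.0216) and with all 9 libraries in one fit (0.0264). Lpl, the lipase of circulating triglyceride, which adipocytes and muscle express most, stood at 4.62, 2.97 and 1.79 CPM in the control, 7.53, 7.83 and 11.8 in the model and 3.95, 3.94 and 4.58 in the HME rats. The model rats were above all others for Lpl. In log2 terms it was at 1.50 in the model against the control group (SE 0.347, edgeR FDR 0.116, DESeq2 FDR 0.00311) and −1.11 in the HME against the model group (SE 0.237, edgeR FDR 0.141, DESeq2 FDR 0.00739).

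Pcyt1a, the regulatory enzyme of phosphatidylcholine synthesis that binds growing droplets, stood at 54.6 ± 1.32 CPM in the control, 38.4 ± 5.46 in the model and 38.3 ± 1.74 in the HME group (SD, n = 3 each). Its log2 fold change in the HME group against the control group was −0.52 (SE 0.0923, edgeR FDR 0.0140), with an edgeR FDR of 0.0522 without control replicate 3 and 0.0577 without HME replicate 1, and in the model group it was −0.51 (edgeR FDR 0.159). In the same list of surface proteins, Cidea was at 0.55 in the HME against the control group (SE 0.939, edgeR FDR 0.778) and Rdh10 at −0.26 in the HME against the model group (edgeR FDR 0.701). Of the proteins that form droplets at the endoplasmic reticulum, Tmem159, the partner of seipin, was at 1.04 in the HME against the control group (SE 0.261, edgeR FDR 0.0510, DESeq2 FDR 0.00315) and at 0.53 and 0.51 in the model against the control and the HME against the model group. Among other patatin lipases, Pnpla7 was at 0.36 in the HME and 0.32 in the model group against the control group (edgeR FDR 0.143 and 0.380), and Pnpla6 at −0.15 in the HME against the model group (edgeR FDR 0.895).

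**Figure D4:**
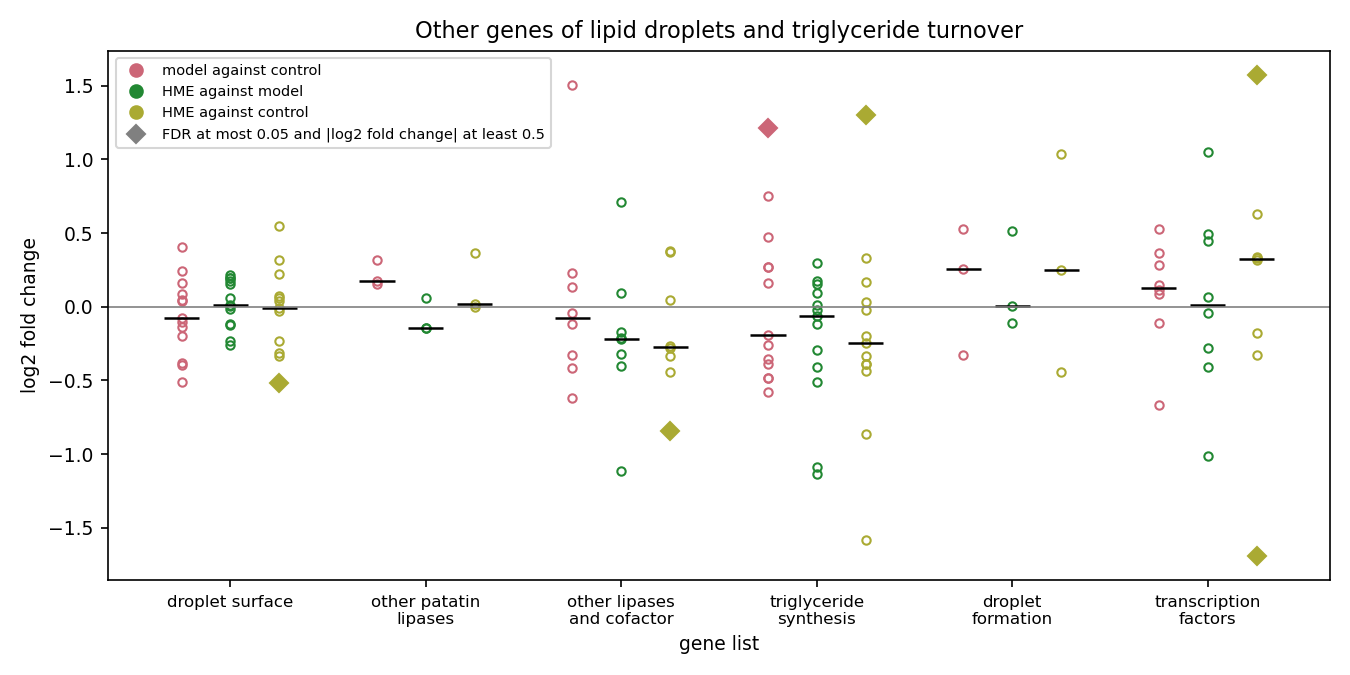
Log2 fold change (y axis) of each tested gene of 6 lists of droplet and triglyceride genes, by list (x axis) and comparison (colour). Filled diamonds mark genes with an edgeR FDR of at most 0.05 and a log2 fold change of 0.5 or more in either direction, and black bars give the median of the list. The diamonds are Agpat3 in both comparisons with the control group and Pcyt1a, Mgll, Srebf1 and Pparg in the HME group against the control group, and 0 of them belong to the HME group against the model group.

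Markers of other cell types were summed in each rat and set beside these values. Kupffer cell and leukocyte markers summed to 256 to 563 CPM in the control, 188 to 416 in the model and 270 to 359 in the HME group. Endothelial markers summed to 137 to 225, 92.3 to 257 and 142 to 190 CPM, and stellate cell markers to 283 to 317, 216 to 325 and 269 to 379 CPM. Bile duct markers stood at 17.0 to 23.5, 15.5 to 34.2 and 22.2 to 24.1 CPM, red blood cell markers at 437 to 1184, 392 to 607 and 359 to 727 CPM, and those of pancreas and intestine at 14.1 to 17.7, 18.9 to 29.4 and 16.7 to 27.9 CPM. Skeletal muscle markers stood at 0 to 0.357 CPM in any rat. In none of these lists were the sums of all HME rats below those of all control and model rats. Model replicate 2, the lowest model rat for Plin2, G0s2 and Pnpla3, had the highest endothelial, Kupffer and stellate sums of its group. They were 257, 416 and 325 CPM, against 107, 298 and 216 in model replicate 1 and 92.3, 188 and 233 in model replicate 3. Its sums of hepatocyte, bile duct, skeletal muscle and pancreas and intestine markers were the lowest of its group. A sum follows the most abundant genes of its list, and the part of these cells in the droplet genes' values was not tested. Of the 46 marker genes tested in the HME against the control group, edgeR called 0 at an FDR of 0.01 and 1 at 0.05, the hepatocyte gene Apoa1 (log2 fold change 0.81, FDR 0.0205). An unadjusted edgeR p under 0.05 was found for 9 of the 46, against 24.3% of all genes, and DESeq2 called 2, Apoa1 and Car3, against 6.09%.

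The profiles of Pnpla5 and Pnpla3 over the 9 libraries were compared with those of 12831 other genes by the mean absolute difference of log2 CPM, each gene centred on its own mean. For Pnpla5 the most similar genes were Scd at 0.89, Pnpla3 at 1.13, Sult4a1 at 1.29, Fasn at 1.81 and Fabp5 at 1.85. For Pnpla3 they were Sult4a1 at 0.84, Pnpla5 at 1.13, Fasn at 1.38, Fabp5 at 1.45 and Acly at 1.56. Scd makes monounsaturated fatty acids, Fasn and Acly are enzymes of fatty acid synthesis and its precursor, Fabp5 binds fatty acids, and Sult4a1 is a sulfotransferase family member known mainly from brain. Pnpla3 and Pnpla5 were each the second gene in the other's order. From the highest to the lowest rat Pnpla5 covered 9.23 and Pnpla3 9.84 log2 units, so that the measure favours genes with a wide range. The points share library and group, and the likeness is a description.

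Mean Scd was 11295 CPM in the control, 8647 in the model and 125 in the HME group, and mean Fasn 2025, 1529 and 126 CPM. For both genes, the control and model rats lay far above the HME rats. Both were picked for likeness to Pnpla5, whose profile is led by its low HME counts, so this separation follows from the choice. Sult4a1 had 245, 254 and 8 counts in the control, 46, 14 and 32 in the model and 0 in every HME rat. Control replicate 3, the low control rat of Pnpla3 and Pnpla5, was thus also the low one of Sult4a1, whereas it stood at 11235 CPM for Scd and 1733 for Fasn, inside the range of the other control rats. For Fabp5 it was again the lowest control rat, at 54.8 CPM against 90.9 and 95.6.

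**Figure D5:**
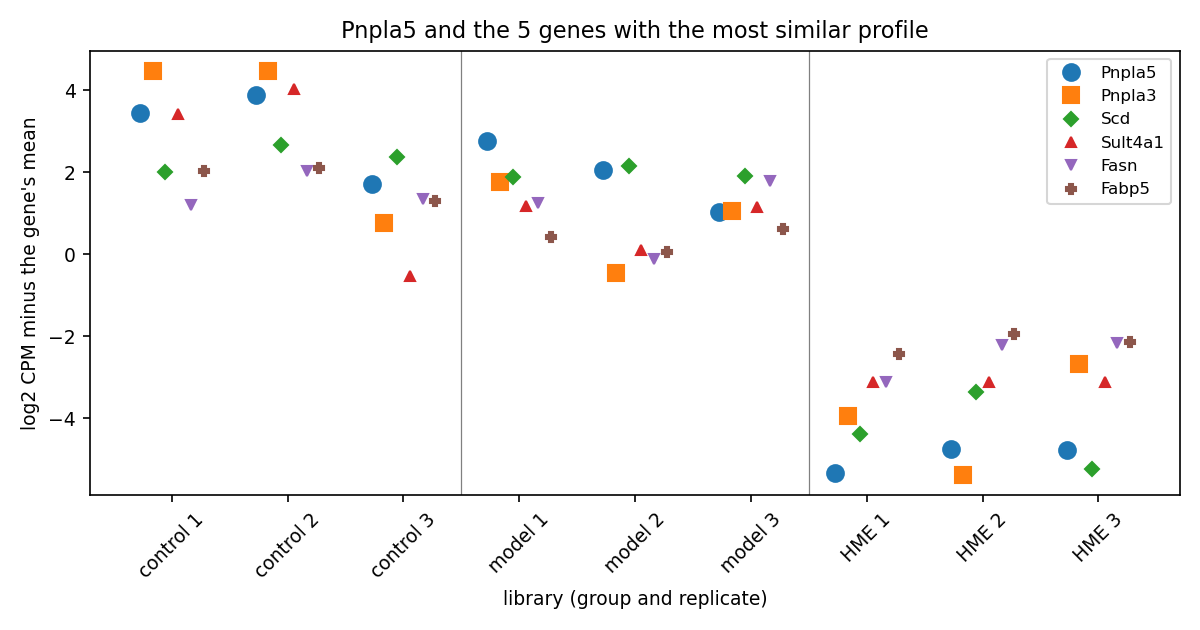
Log2 CPM of Pnpla5 and its 5 most similar genes in each library, minus the gene's own mean over 9 libraries (y axis), by group and replicate (x axis). All 6 genes lie below 0 in the 3 HME libraries, and in control replicate 3 Pnpla3 and Sult4a1 lie at 0.76 and −0.54 while Scd lies at 2.37. The 5 genes were picked for likeness to Pnpla5, so their low values in the HME libraries follow from that choice.

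Position was looked at after these values were seen, in the gene order of the mouse annotation (GENCODE M21), since a rat annotation was not used here. There Pnpla5 and Pnpla3 are direct neighbours, with Sult4a1 next to Pnpla5 and Samm50 next to Pnpla3. The 3 protein-coding genes on either side are Mpped1, Efcab6 and Sult4a1, and Samm50, Parvb and Parvg, and all 6 were in the rat table. Efcab6 stood at 0.482, 1.84 and 0.532 CPM in the control, 0.989, 0.385 and 0.431 in the model and 0.108, 0 and 0.0520 in the HME rats, the latter from 0 to 2 counts. Samm50, which encodes part of the mitochondrial sorting and assembly machinery, stood at 63.4, 77.7 and 64.5 CPM in the control, 59.4, 48.1 and 51.6 in the model and 43.4, 41.1 and 45.2 in the HME rats. Parvb stood at 21.6, 17.9 and 11.3 CPM in the control, 12.3, 13.7 and 12.7 in the model and 9.10, 5.88 and 8.89 in the HME rats. For Samm50 and Parvb all HME rats were below all control rats and all model rats, which held for 3.53% of the 12392 genes tested in both comparisons. Against the model group their log2 fold changes were −0.29 and −0.69 (edgeR FDR 0.646 and 0.384, DESeq2 FDR 0.754 and 0.175). Against the control group they were −0.67 and −1.10 (edgeR FDR 0.0107 and 0.0411, DESeq2 FDR 0.000201 and 0.00162). Neither gene was called by edgeR in these comparisons. Sult4a1 had already been picked for its likeness to Pnpla3, and Efcab6 was too low to be tested in the HME against the model group. Against the control group Efcab6 was at −3.98 (SE 0.920, edgeR FDR 0.0343), which did not pass the threshold. With these 2 genes, 4 of the 6 neighbours were lower without overlap in each HME comparison. Of all genes, 13.9% were apart in either direction against the model group and 30.0% against the control group. Parvg overlapped between all groups, and Mpped1 had counts in 1 model and 1 HME rat alone. Reads were counted without regard to strand, and whether neighbouring genes share reads in the rat was not tested.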

How the data were processed

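Liver RNA-seq of 9 rats was used, 3 per group as the labels give them. The authors aligned reads with HISAT2 (genome Rnor 6.0 in the submitters' processing notes), counted reads on exons with HTSeq 0.6.1 without strand, and deposited raw counts per gene as whole numbers. The labels name the mouse as organism but Wistar as strain, and the samples were taken as rat because all 19686 gene identifiers are rat Ensembl ones. A table of assembled transcripts was not used, because its unit is not stated. No rat genome, annotation or sequence was used here, and gene order was read from the mouse (GENCODE M21).

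Each pair of groups was fitted on its 6 libraries with edgeR 4.0.16 in R 4.3.3 (filterByExpr with a minimum count of 10, TMM, robust glmQLFit, two-sided glmQLFTest) over all genes, with Benjamini-Hochberg adjustment (FDR). Thresholds were an FDR of 0.01 and an absolute log2 fold change of 0.5. DESeq2 1.42.0, other scalings, no filter, all 9 libraries in one fit, a replicate block and each rat left out in turn were alternatives. P-values judge a group difference against the spread between these rats, which edgeR and DESeq2 estimate with information shared across genes.

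The members and gene lists were chosen with earlier results of these data known. Named genes are the members, listed genes called at an FDR of 0.05 or with the largest change of their list, and the 5 genes most like Pnpla3 and Pnpla5 (prior count 2). The markers, summed as CPM, were of adipocytes, stellate, Kupffer and endothelial cells, leukocytes, bile duct, red blood cells, muscle, pancreas, intestine and hepatocytes. Depth was 14345819 to 26837227 counts per library.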

Additional observations from a re-analysis of the deposited data

How the results depend on the processing

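Precision was limited by the spread between 3 rats of a group, except for Pnpla2, Plin4 and Pnpla5 with the extract, where counts were the limit. Of 240 alternatives of the members' 20 tested comparisons, 228 kept the direction and the side of the threshold, 3 passed it with DESeq2 alone (Pnpla3 in both HME comparisons and Plin2 against the control group) and 9 changed sign, all near 0. The 48 alternatives of the 4 comparisons given without a test kept their sign. DESeq2 called 1 member in the HME against the model group and 2 against the control group, in place of 0. Hsd17b13 in the HME against the control group was −0.13 with library size alone, a scaling that shifted the median of all genes there to −0.14 and that in the model against the control group likewise to −0.14. It ran from −0.0850 to 0.126 when 1 rat was left out, with negative values without control replicate 1 or 3 (−0.00636 and −0.0850) and without HME replicate 1 or 3 (−0.0306 and −0.0504). With 1 rat left out, Cideb ran from −0.263 to 0.0144 in the model against the control group (positive without model replicate 2) and from −0.184 to 0.0840 in the HME against the model group (positive without model replicate 1). Plin5 ran there from −0.0536 to 0.258, negative without model replicate 2 (−0.0467) or HME replicate 1. Among the 5 other listed genes named as called, Agpat3 ran in the HME against the model group from −0.0119, without model replicate 2, to 0.226. Pcyt1a ran there from −0.110 to 0.0749, negative without model replicate 1 or HME replicate 2 (−0.0313), and it was −0.00620 with library size alone and −0.000970 with all 9 libraries in one fit. The causes were not tested.

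Replicate numbers did not pair the rats: none of 9 same-numbered pairs of libraries had a correlation over 0.1 (−0.231 to −0.0218), and 0 libraries correlated best with their own number. With the replicate block 0 members were called, the edgeR FDR of Pnpla3 was 0.0172 in the HME against the model and 0.207 against the control group, and 0, 7 and 104 genes of the whole table were called in the model against control, HME against model and HME against control comparisons, in place of 10, 17 and 187. DESeq2 called 256, 147 and 769. No filter gave 71, 38 and 489, all 9 libraries in one fit 25, 20 and 113, library size alone 8, 11 and 238, and an FDR of 0.05 gave 75, 57 and 804. Leaving out 1 rat gave 0 to 10, 2 to 12 and 86 to 132.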
